A study of Mus musculus with 18 samples.

Results

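Constant hypoxia of the heart was compared with matched controls through the male-to-female expression ratio of each gene. The comparison took the 12 arrays whose titles name control hearts or hearts after chronic constant hypoxia (CCH), centred each on its median, averaged the spots of a gene, and kept a gene only if none of the 6 groups lacked it on all its arrays. This left 7196 named genes of the 10225 gene symbols on the array. The 6 groups were mouse hearts kept as controls for 1, 2 or 4 weeks and mouse hearts after 1, 2 or 4 weeks of CCH, with 2 arrays in each group. On every array, cDNA of a male heart carried the dye Cy5 and cDNA of a female heart of the same condition and duration carried Cy3. Hearts exposed to intermittent hypoxia complete the series of 18 arrays and entered only 1 alternative fit. The strain, the age of the mice and the oxygen level are not given in the sources used here. Whether replicate arrays used different mice is not stated either, so a p-value here reflects only how far these arrays scatter, which may be technical.

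The deposited values compare the 2 channels of an array as a log2 ratio. The labels name the dye of each sex but not the numerator. The ratio was read as male over female because the Y-linked gene Eif2s3y, a subunit of translation initiation factor 2, was positive on all 12 arrays, between 1.00 and 2.28. Ddx3x, an X-linked RNA helicase that escapes X inactivation in females, was negative on all 12 arrays, and the X-linked histone demethylase gene Kdm6a on 11 of 12. The other 2 genes of the list of X-linked escape genes did not share this sign, since Kdm5c was positive on 6 of 11 arrays and Usp9x on 8 of 12, so the reading rests mainly on Eif2s3y. A positive CCH minus control difference therefore means that the male-to-female ratio was higher under CCH. It cannot show whether the male heart, the female heart or both differed. A ratio also holds no expression level, so the presence of heart muscle markers could not be checked from these values.

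Cells sense falling oxygen through prolyl hydroxylases (Egln genes), which need oxygen to mark the alpha subunit of hypoxia-inducible factor (HIF) for destruction by the von Hippel-Lindau ubiquitin ligase. When oxygen is low, HIF is spared and activates genes of glucose uptake, glycolysis and lactate export, and genes such as Pdk1 that hold pyruvate back from the mitochondria. Heart muscle normally draws most of its energy from fatty acids through oxidative phosphorylation, and chronic hypoxia is known for strain on the right ventricle, a larger red cell mass and a shift of fuel use.

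The arrays differed in how many spots they measured and in how well replicates matched. At 1 week an array held 23300 to 24512 measured spots, at 2 weeks 15802 to 19720 and at 4 weeks 12650 to 17904, and 5596 of the 7196 genes had a value on all 12 arrays. Across those genes the replicate arrays of CCH correlated at r = 0.40 at 1 week, 0.57 at 2 weeks and 0.65 at 4 weeks. The replicate arrays of the controls correlated at −0.05, 0.03 and 0.14. These correlations run across genes, which share arrays and are not independent. Of the 66 pairs of arrays, 8 correlated under −0.3, and the lowest was −0.52, between control 4 weeks replicate 1 and CCH 2 weeks replicate 1. The labels state the same dyes for all arrays, so the direction was kept. The SD of the log2 ratios on an array was 0.448 ± 0.132 (SD, n = 6) under CCH and 0.344 ± 0.103 (SD, n = 6) in the controls. The difference of 0.104 did not pass an exact two-sided permutation test that exchanged conditions within each duration (p = 0.111, smallest possible p 0.00926).

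**Figure D1:**
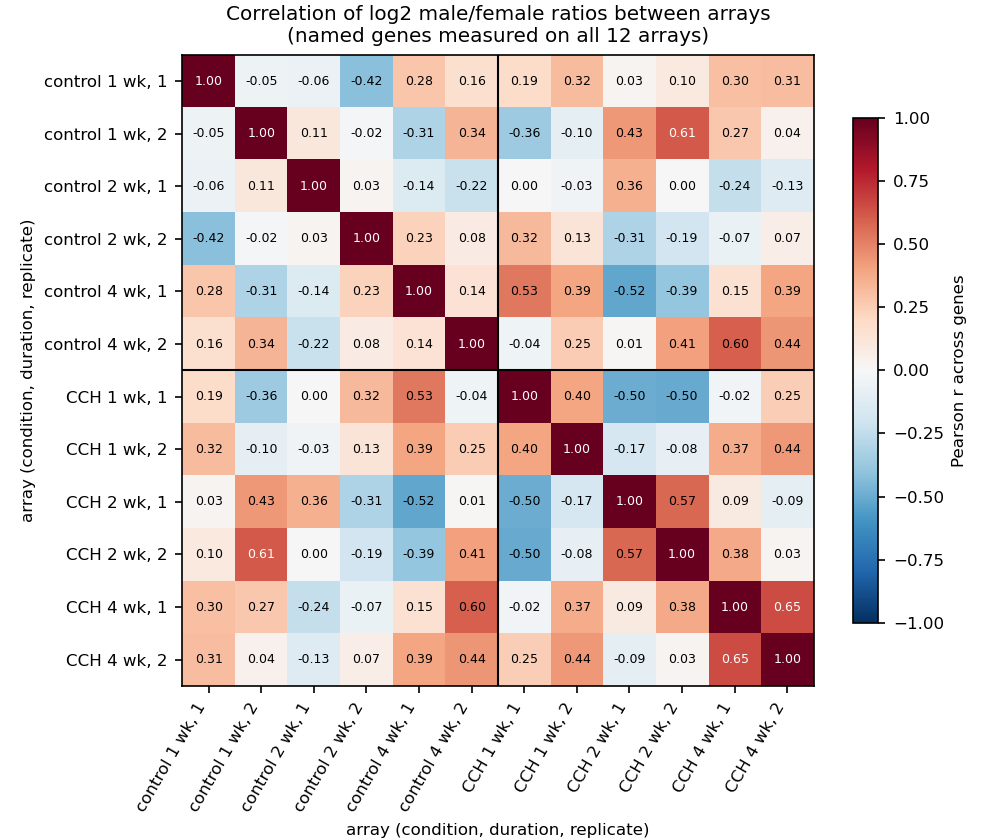
Pearson correlation of the log2 male/female ratios between each pair of the 12 arrays, across the 5596 named genes with a value on all of them, with control arrays first and CCH arrays after the black line (colour scale from −1 to 1, values printed in the cells). The replicate pairs of CCH sit between 0.40 and 0.65, those of the controls between −0.05 and 0.14, and CCH 1 week replicate 1 sits at −0.50 against both CCH arrays of 2 weeks.

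Markers of the atria and of other tissues stood far from 0 on single arrays. On CCH 1 week replicate 1 the atrial genes Myl7 (atrial myosin light chain) and Sln (sarcolipin) stood at 3.31 and 2.75, and the liver genes Alb (albumin), Trf (transferrin) and Ttr (transthyretin) at 5.67, 4.33 and 2.31. Its partner, CCH 1 week replicate 2, gave −1.19 for Myl7, −0.88 for Sln, −2.65 for Alb and −1.01 for Trf. The median of the 4 atrial markers ranged from −1.51 to 1.89 over the control arrays, with both ends held by the 2 controls of 2 weeks. Over the CCH arrays the median ranged from −0.88 to 2.75. Nppa had no value on the CCH arrays of 1 and 2 weeks, so the medians there are of the other atrial markers. The 6 red cell markers had a median of −2.03 on CCH 2 weeks replicate 1 and of 0.06 to 0.94 on the other 5 CCH arrays, against −0.55 to 1.20 over the controls. The 4 lung markers had a median of −1.85 on control 1 week replicate 1 and of −0.37 to 0.49 over the CCH arrays. On that control the airway secretoglobin genes Scgb1a1 and Scgb3a2 stood at −5.81 and −2.87. The lung surfactant genes did not share this, with Sftpc at −0.84 and Sftpb at 0.23. Sftpc stood at 3.08 and −3.94 on the 2 CCH arrays of 1 week. The other lung markers were not as far from 0 there, with Sftpb at 0.28 and −0.27, Scgb1a1 at 0.70 and 0.37 and Scgb3a2 at −0.11 and −0.37. The red cell markers were Alas2, Slc4a1, Klf1 and the embryonic globin genes Hbb-y, Hba-x and Hbb-bh1. These globin genes and Scgb3a2 were not in the list of cell type markers set for the analysis. The liver genes were chosen after their values were seen, and the part of any of these markers in the results below was not tested.

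No gene passed the test for a difference between CCH and control. Averaged over the 3 durations, limma called 0 of 10783 units, the 7196 named genes and 3587 spots without a single gene name (0.0% called, Benjamini-Hochberg adjusted p under 0.05, smallest adjusted p 0.649). An unadjusted p under 0.05 was reached by 749 units, where 539.15 would be reached under no difference at all. Among named genes 487 reached it (6.77%), 215 with a higher ratio under CCH (2.99%) and 272 with a lower one (3.78%). The median difference over named genes was −0.02 on the log2 scale, 54.9% of the differences were below 0, and the median SE was 0.15. Single durations gave 0 calls at 1 week (smallest adjusted p 0.697, 665 units at an unadjusted p under 0.05), 0 at 2 weeks (0.151, 1088 units) and 0 at 4 weeks (0.112, 1668 units). The named genes below are therefore given with their values and 95% confidence intervals as a description of these arrays.

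The separation of the 6 CCH arrays from the 6 control arrays was complete for 3 of the 5596 genes with a value on all arrays (0.0536%). How many genes would separate under no difference at all was not computed. These 3 are therefore a description and no sign of an effect. Ctla2b, which encodes a relative of the cathepsin propeptide that inhibits cysteine proteases, had the smallest p-value of all named genes. Its control arrays stood at 0.54 and 0.42 at 1 week, −0.03 and 0.51 at 2 weeks and 0.57 and 0.54 at 4 weeks. Its CCH arrays stood at −0.04 and −0.32, −0.17 and −0.07, and −0.16 and −0.88. All 6 CCH arrays thus lay below all 6 controls, by a gap of 0.0085 to the lowest control, an array of 2 weeks, and the mean difference was −0.70 (95% interval −1.04 to −0.36, limma adjusted p 0.65). The close paralog Ctla2a could share signal with this spot, so the value may not belong to Ctla2b alone.

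Tbc1d8, a member of the family of proteins that switch off Rab GTPases, had control values of 0.13 and 0.07, 0.01 and 0.33, and 0.00 and 0.47 at 1, 2 and 4 weeks. Its CCH values were −0.11 and −0.06, −0.19 and −0.23, and −0.19 and −0.28. The ratio was on the male side on every control array and on the female side on every CCH array, with a mean difference of −0.35 (95% interval −0.63 to −0.07). Ttc3, a ubiquitin ligase gene known for acting on the kinase Akt, ran the other way. Its controls stood at 0.14 and −0.07, −0.13 and −0.05, and −0.56 and −0.01, and its CCH arrays at 0.18 and 0.23, 0.36 and 0.21, and 0.47 and 0.23. The mean difference of Ttc3 was 0.39 (95% interval 0.10 to 0.68), and its CCH arrays were the more alike at each duration except 2 weeks. Neither gene passed the limma test after adjustment.

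Among the genes with the smallest p-values and a higher ratio under CCH, Glo1 encodes glyoxalase 1, which removes the methylglyoxal that glycolysis leaves behind. Its controls stood at −0.18 and 0.01 at 1 week, −0.43 and −0.77 at 2 weeks and 0.35 and −0.23 at 4 weeks, and its CCH arrays at 0.08 and 0.01, 1.26 and 0.94, and 0.02 and 0.23. Both CCH arrays of 2 weeks lay far above their controls, while the groups lay close together at 1 and 4 weeks. The difference was 0.13 at 1 week, 1.70 at 2 weeks and 0.06 at 4 weeks (limma adjusted p 0.91, 0.15 and 0.93). The 2 spots of Glo1 gave mean differences of 0.25 and 1.07.

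Fads1, the delta-5 fatty acid desaturase, was more even over time. Its controls stood at 0.00 and −0.29, 0.06 and −0.13, and 0.29 and −0.22, and its CCH arrays at 0.33 and 0.52, 0.12 and 0.31, and 0.61 and 0.86. Each CCH array lay above both controls of its own duration, and the mean difference was 0.50 (95% interval 0.20 to 0.80). Ugcg, the enzyme that makes glucosylceramide, had a mean difference of 0.72 (0.33 to 1.12) and 6 of 6 CCH arrays above the control mean of their duration. Nolc1, a nucleolar protein of ribosome biogenesis, had 0.54 (0.23 to 0.85), and Cenpa, the histone of centromeres, 0.43 (0.17 to 0.69), again with 6 of 6 arrays above. Mrpl40, a protein of the large mitochondrial ribosomal subunit, had 0.73 (0.35 to 1.12). The genes with such array counts, here and below, were chosen by a small p in the same comparison. The counts therefore add no support of their own, and the share of all genes with 6 of 6 was not computed. Separation of the arrays within a duration, above and below, adds no support either, and its share over all genes was not computed.

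The epithelial genes Cdh1 (E-cadherin) and Krt8 (keratin 8) had mean differences of 0.69 (0.34 to 1.05) and 0.45 (0.18 to 0.73). In both, the difference at 2 weeks was near 0, at 0.14 and −0.04, and that at 4 weeks was 1.14 and 0.78. For Cdh1 the 4-week value rests on a single control, which stood at 0.58. Thra, the alpha receptor of thyroid hormone, which is the main form in heart muscle, was measured on 11 arrays. Its controls stood at −0.55 on the 1 array of 1 week, −0.50 and −0.14 at 2 weeks and 0.51 and 0.38 at 4 weeks, and its CCH arrays at 0.55 and 1.34, −0.25 and −0.28, and 0.94 and 0.70. The largest difference was thus at 1 week, 1.49, where it rests on a single control, and the mean difference was 0.64 (0.26 to 1.02). The other genes of this direction were Rnf139, Tut7 and Nbas, with mean differences of 0.50, 0.58 and 0.49. Rnf139, a ubiquitin ligase gene, differed by 0.69 at 2 weeks and 0.90 at 4 weeks, whereas Tut7 and Nbas differed mainly at 4 weeks, by 1.54 and 1.45.

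On the lower side, Grhpr, the reductase that clears glyoxylate, was the most even over time. Its controls stood at −0.55 and 0.03, 0.52 and −0.02, and −0.41 and −0.59, and its CCH arrays at −0.95 and −0.97, −0.47 and −0.64, and −1.08 on the 1 array of 4 weeks with a value. The 3 differences were −0.70, −0.80 and −0.58, with a mean of −0.70 (95% interval −1.06 to −0.33). Sardh, a mitochondrial enzyme that breaks down sarcosine, had a mean difference of −0.61 (−0.94 to −0.28) that lay mainly at 4 weeks, where the 1 CCH array with a value stood at −1.25. Rps12, a protein of the small cytosolic ribosomal subunit, had 6 of 6 CCH arrays below the control mean of their duration and a mean difference of −0.58 (−0.90 to −0.27).

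Mrps28, a protein of the small mitochondrial ribosomal subunit, differed by −0.43 at 1 week, 0.31 at 2 weeks and −1.39 at 4 weeks. Its 4-week controls stood at 0.10 and 0.16 and its 4-week CCH arrays at −1.39 and −1.13, so these 4 arrays stood far apart although the adjusted p at 4 weeks was 0.11. The secreted factor gene Tafa5 had a mean difference of −0.72 (−1.10 to −0.33) with its largest difference, −1.19, at 2 weeks. Calcoco1, Scrn3, Tspan8 and Etv6, the last a transcriptional repressor of the ETS family, had differences near 0 or above at 1 week (0.16, 0.25, 0.22 and 0.08) and of −1.57, −1.29, −1.39 and −1.16 at 4 weeks. Ccdc166 and Tmem256 had mean differences of −0.61 and −0.57.

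**Figure D2:**
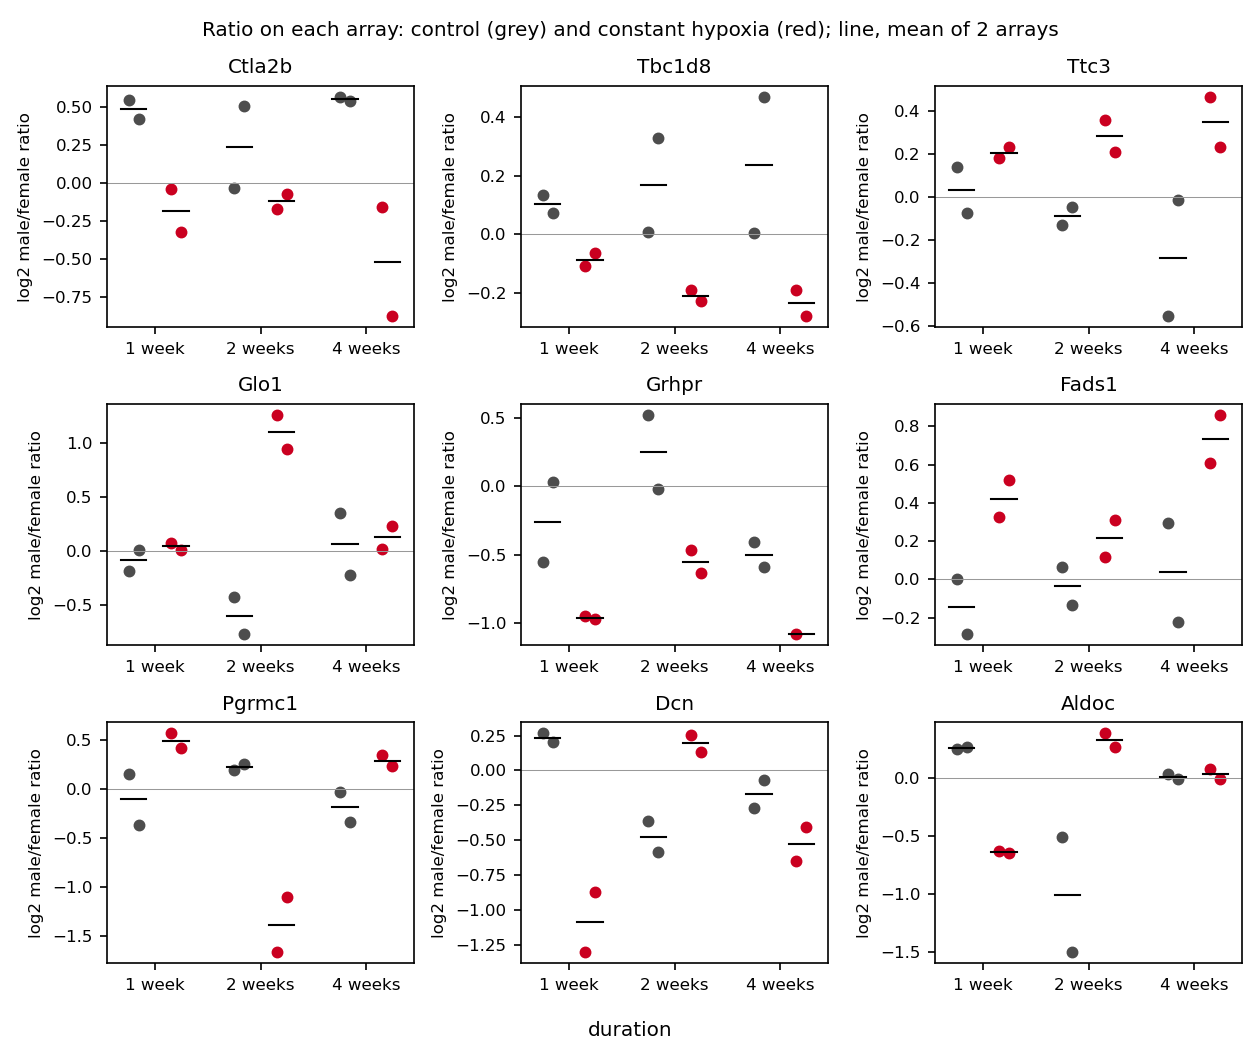
Log2 male/female ratio on each of the 12 arrays for 9 genes, with controls in grey, CCH in red, replicates as points and the mean of a group as a line, at 1, 2 and 4 weeks. Ctla2b, Tbc1d8 and Ttc3 show no overlap between the 6 CCH and the 6 control points, Glo1 is apart at 2 weeks only, and Pgrmc1, Dcn and Aldoc turn direction between 1 and 2 weeks.

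The differences varied in sign between durations. The difference had the same sign at 1, 2 and 4 weeks in 878 of 5596 genes (15.7%), 403 with a higher and 475 with a lower ratio under CCH. Its sign at 2 weeks was opposite to that at 1 week in 4201 genes (75.1%). Across the 5596 genes the differences at 1 and 2 weeks, which share no array, correlated at r = −0.69, those at 1 and 4 weeks at −0.19 and those at 2 and 4 weeks at 0.38. Without 1 array at a time these ranged from −0.71 to −0.45, from −0.34 to 0.09 and from 0.06 to 0.52, and the weakest value of the first came without CCH 1 week replicate 1, the array with the high atrial and liver markers. The mean ratios of the controls of 1 and 2 weeks correlated at −0.33, and those of CCH at −0.47. What each adds to the correlation of the differences was not tested. The limma F test of whether the difference changed with duration called 0 of 10783 units (smallest adjusted p 0.271, 1829 units at an unadjusted p under 0.05), and 1064 named genes reached an unadjusted p under 0.05 (14.8%).

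**Figure D3:**
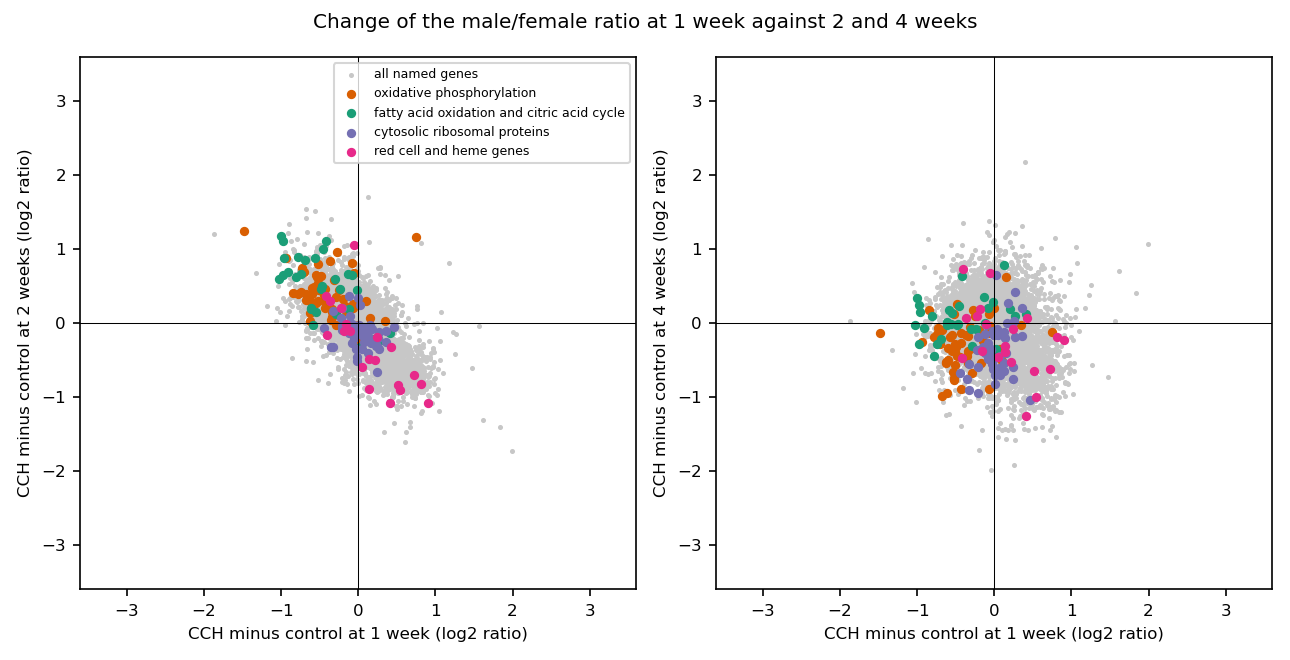
CCH minus control difference of the log2 male/female ratio at 1 week (x axis) against that at 2 weeks (left) and at 4 weeks (right), 1 point per named gene with a value on all 12 arrays and 4 gene lists in colour. Most points of the left panel fall at the upper left and lower right (r = −0.69), with oxidative phosphorylation and fatty acid genes at the upper left and red cell genes at the lower right.

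Pgrmc1, Dcn and Aldoc were among the 5 genes with the smallest p-values in this F test that had a value on all arrays. Pgrmc1, a heme-binding membrane protein known as a progesterone receptor component, had controls at 0.15 and −0.37, 0.19 and 0.25, and −0.03 and −0.34. Its CCH arrays stood at 0.57 and 0.42 at 1 week, −1.67 and −1.11 at 2 weeks and 0.34 and 0.24 at 4 weeks. CCH was above both controls at 1 and 4 weeks and below both at 2 weeks, with differences of 0.60, −1.61 and 0.48 (limma adjusted p 0.70, 0.15 and 0.38, and 0.27 for the F test).

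Dcn, the collagen-binding proteoglycan decorin, ran the other way. Its controls stood at 0.27 and 0.20, −0.37 and −0.59, and −0.27 and −0.07, and its CCH arrays at −1.31 and −0.87, 0.26 and 0.13, and −0.65 and −0.41. The difference was −1.33 at 1 week, 0.67 at 2 weeks and −0.36 at 4 weeks, and no CCH array overlapped the controls of its duration. Dcn was chosen by a small p in the same data, so this separation adds no support of its own. Cish, a feedback inhibitor of cytokine signalling, had −0.67, 1.43 and −0.80. Mfap2, a microfibril protein, and Arl2, a small GTPase, had −0.98 and −1.05 at 1 week and 0.08 and 0.20 at 2 weeks. Of the genes with a higher ratio under CCH at 1 week, the nucleotide receptor P2ry10, the cytoskeletal gene Septin1 and the channel-like gene Tmc5 had 1.09, 1.09 and 0.99 there and −0.67, −0.84 and −0.39 at 2 weeks. The ion channel gene Mcoln2 and the transcription factor gene Gabpb2 differed by −1.46 and −1.02 at 2 weeks after 0.59 and 0.44 at 1 week.

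At 4 weeks the spread of differences was the widest, and 1041 named genes reached an unadjusted p under 0.05 (14.5%), against 401 at 1 week (5.57%) and 680 at 2 weeks (9.45%). These were 440 genes with a higher ratio under CCH (6.11%) and 601 with a lower one (8.35%) at 4 weeks, 146 (2.03%) and 255 (3.54%) at 1 week, and 288 (4.0%) and 392 (5.45%) at 2 weeks. Differences below 0 made up 53.3% of named genes at 4 weeks and 51.2% at both 1 and 2 weeks. Gli3, a transcription factor of hedgehog signalling, differed by 1.24 at 4 weeks, where its controls stood at −0.06 and 0.29 and its CCH arrays at 1.60 and 1.10. Mlc1 and Jade1 differed by 1.36 and 0.96. Nectin2, a cell adhesion gene, differed by −1.72, with controls at 1.28 and 0.23 and CCH arrays at −1.01 and −0.92. Dmkn differed by −1.92, with controls at 0.22 and 0.10 and CCH arrays at −2.38 and −1.14. At 1 and 2 weeks the differences of these 5 genes were smaller, the largest in size being −0.41 for Mlc1 at 1 week, and each had an adjusted p of 0.11 at 4 weeks in limma. This order of the durations depended on the scaling. With arrays scaled to the same spread, the units at an unadjusted p under 0.05 numbered 331 in place of 1668 at 4 weeks, 1099 in place of 665 at 1 week and 1787 in place of 1088 at 2 weeks, so that 4 weeks had the fewest.

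Genes of oxygen sensing and HIF gave small differences. Of the 12 members tested, 5 were below 0 (41.7%, against 54.9% of all named genes) and 7 above 0 in the mean difference, with a median of 0.06. The medians at 1, 2 and 4 weeks were −0.16, 0.23 and 0.05. The 4-week median changed sign without centring (−0.0089) and without control 4 weeks replicate 1 (−0.03), and the mean median without CCH 1 week replicate 2 (−0.0079). The 1-week median was −0.047 without CCH 1 week replicate 1, and the 2-week median 0.14 without control 4 weeks replicate 2. Hif1a itself, the oxygen-regulated subunit, had controls at −0.09 and 0.04, 0.15 and 0.25, and −0.60 and 0.31, and CCH arrays at −0.63 and −0.08, 0.56 and 0.53, and 0.11 and 0.08. Only at 2 weeks did both CCH arrays lie above both controls, and the mean difference was 0.09 (95% interval −0.28 to 0.45). Egln3, the prolyl hydroxylase that is itself a HIF target, had a mean difference of 0.42 (−0.01 to 0.85) with 5 of 6 CCH arrays above the control mean of their duration. Rbx1 and Cul2, subunits of the von Hippel-Lindau ubiquitin ligase, had −0.11 and 0.12, and Cited2, which competes with HIF for its coactivator, had 0.18. None of the 12 passed the adjusted test in any comparison.

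Glycolysis genes and HIF targets were below 0 at 1 week and above it at 2 weeks. Of 27 members, 19 were below 0 at 1 week (70.4%, against 51.2% of all named genes) with a median of −0.25, and 23 were above 0 at 2 weeks (85.2%, against 48.8%) with a median of 0.40. At 4 weeks the median was 0.06, and it ran from −0.17 to 0.16 without 1 of the 2 controls. No member passed the adjusted test, and 5 of 27 reached an unadjusted p under 0.05 at 2 weeks, all above 0, where 4.0% of named genes did so above 0 and 9.45% in either direction. Without control 2 weeks replicate 2 the 2-week median was 0.22 and the mean median −0.01 in place of 0.09. Without Trf, the member that is also a liver gene, the medians were −0.26, 0.41 and 0.06. The promoters of 3 members with this pattern are shown with the HIF core in capitals, which is ACGTG or GCGTG on either strand, so that its reverse complements CACGT and CACGC are capital too and CACGTG counts on both strands. They are the 250 bases before the start annotated by RefSeq on GRCm38.p6. Aldoc and Pdk1 each have a second annotated start, and the first in the table is shown. The same window of the second start, not printed here, held 1 match in Aldoc and 0 in Pdk1.
Aldoc, chr11:78322823-78323072, + strand: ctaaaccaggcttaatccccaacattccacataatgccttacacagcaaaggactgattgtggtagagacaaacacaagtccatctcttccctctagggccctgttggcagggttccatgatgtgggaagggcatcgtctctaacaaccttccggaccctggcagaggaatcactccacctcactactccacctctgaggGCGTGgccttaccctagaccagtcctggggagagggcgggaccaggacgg
Pdk1, chr2:71872974-71873223, + strand: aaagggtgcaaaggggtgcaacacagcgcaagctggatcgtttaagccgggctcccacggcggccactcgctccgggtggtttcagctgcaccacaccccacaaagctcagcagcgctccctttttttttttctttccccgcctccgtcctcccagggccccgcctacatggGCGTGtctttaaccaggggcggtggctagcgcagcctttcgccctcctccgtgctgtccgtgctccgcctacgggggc
Pgk1, chrX:106186850-106187099, + strand: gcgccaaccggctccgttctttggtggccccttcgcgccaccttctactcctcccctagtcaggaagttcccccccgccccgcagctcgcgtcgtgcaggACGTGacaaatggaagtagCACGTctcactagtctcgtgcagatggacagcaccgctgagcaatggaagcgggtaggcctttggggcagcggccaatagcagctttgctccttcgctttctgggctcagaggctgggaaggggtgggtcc
Promoters were available for 22 genes of the glycolysis and HIF target list and for 5772 of the 7196 tested genes. The core was found in 29 of 35 such promoters of the list (82.9%). It was found in 56.2% of the 7460 promoters of tested genes and in 38.6% of all 32851 promoters available. The list was chosen to hold HIF targets, so its higher share says nothing about these arrays. A match is a description of letters and does not mark a bound site.

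Aldoc, the aldolase C of glycolysis whose promoter stands first above, had controls at 0.25 and 0.27, −0.51 and −1.50, and 0.04 and −0.01. Its CCH arrays stood at −0.63 and −0.65 at 1 week, 0.39 and 0.27 at 2 weeks and 0.08 and −0.00 at 4 weeks. The groups did not overlap at 1 and 2 weeks, in opposite directions, with differences of −0.90 and 1.34, and they overlapped at 4 weeks (0.02). Pdk1, the kinase that shuts pyruvate dehydrogenase, had −0.75, 0.78 and 0.37, and Pgk1, the X-linked phosphoglycerate kinase, −0.66, 0.76 and −0.10. The mean differences of Pdk1 and Pgk1 were 0.13 (95% interval −0.38 to 0.65) and −0.00 (−0.46 to 0.46), and both turned sign under other settings. Ldha, the lactate dehydrogenase subunit of anaerobic glycolysis, had 0.49, 0.53 and −0.05, the first from 1 CCH array. The mitophagy gene Bnip3 had −0.39, 0.36 and 0.24. The glucose transporters Slc2a1 and Slc2a4 had mean differences of −0.15 (−0.48 to 0.18) and 0.05 (−0.43 to 0.54), the lactate transporter Slc16a1 0.28 (−0.06 to 0.61) and the stress gene Ndrg1 0.25 (−0.05 to 0.55). Pdk4, which answers to fatty acid supply, had −0.42, 0.43 and 0.81.

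Genes of oxidative phosphorylation lay below 0 at 1 and 4 weeks and above it at 2 weeks. The list was matched by symbol and also holds the complex I assembly factor genes Ndufaf1, Ndufaf2, Ndufaf3, Ndufaf4 and Ndufaf7. Of 65 members, 58 were below 0 at 1 week (89.2%, against 51.2% of all named genes). At 2 weeks 60 were above 0 (92.3%, against 48.8%) and at 4 weeks 55 below 0 (84.6%, against 53.3%). The medians were −0.43, 0.39 and −0.28, where all named genes had −0.01, −0.01 and −0.03. Below at 1 week and above at 2 weeks were 56 members (86.2%), against 36.5% of all named genes. In the mean of the 3 durations 48 were below 0 (73.8%, against 54.9%), with a median of −0.11. That median was −0.22 without control 2 weeks replicate 2 and −0.035 when its partner was left out. None passed the adjusted test, and 21 reached an unadjusted p under 0.05 in the F test, where 14.8% of named genes did. Ndufa11 of complex I had controls at −0.12 and −0.13, 0.02 and −0.48, and −0.17 and 0.24, and CCH arrays at −1.04 and −0.56, 0.22 and 0.11, and −1.13 and −0.76. Both CCH arrays lay below both controls at 1 and 4 weeks and above both at 2 weeks, with differences of −0.67, 0.39 and −0.98. Other members were Ndufa1, Ndufa13 and the ATP synthase gene Atp5k, with mean differences of −0.38, −0.35 and −0.43.

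By array, the median of these 65 genes was −0.39 and −0.27 on the CCH arrays of 1 week, 0.07 and 0.06 at 2 weeks and −0.32 and −0.35 at 4 weeks. The control arrays stood at 0.21 and 0.02, −0.03 and −0.59, and −0.03 and −0.08. The CCH replicates lay close together at each duration, while the control of 2 weeks that stood at −0.59 carried much of the 2-week difference: without it the median was 0.13 in place of 0.39. The 1-week median was −0.30 without control 1 week replicate 1. The atrial markers on the same 2 controls stood at medians of 1.89 and 1.08, and their part was not tested.

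Genes of fatty acid oxidation and the citric acid cycle shared the 1-week and 2-week values but not that of 4 weeks. Of 36 members, 30 were below 0 at 1 week (83.3%, against 51.2% of all named genes, median −0.47) and 29 above 0 at 2 weeks (80.6%, against 48.8%, median 0.60), and 15 were below 0 at 4 weeks (41.7%, against 53.3%, median 0.05, and −0.0044 without centring). Acadm, the medium-chain acyl-CoA dehydrogenase, had controls at −0.06 and −0.89 at 2 weeks and CCH arrays at 0.93 and 0.84, a difference of 1.36. Cd36, the fatty acid carrier, and Lpl, the lipase that frees fatty acids in capillaries, differed by 1.04 and 1.11 at 2 weeks and by −0.22 and −0.42 at 1 week. The 1-week value of Cd36 rests on 1 CCH array. Dlst of the citric acid cycle had 0.65 at 2 weeks. The 2-week median was 0.30 without control 2 weeks replicate 2, where these 36 genes had a median of −0.61, and the 1-week median was −0.21 without control 1 week replicate 1. The mean median of 0.02 ran from −0.11 to 0.10 when 1 of the 2-week controls was left out. No member passed the adjusted test, and 14 of 36 reached an unadjusted p under 0.05 in the F test (14.8% of named genes).

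**Figure D4:**
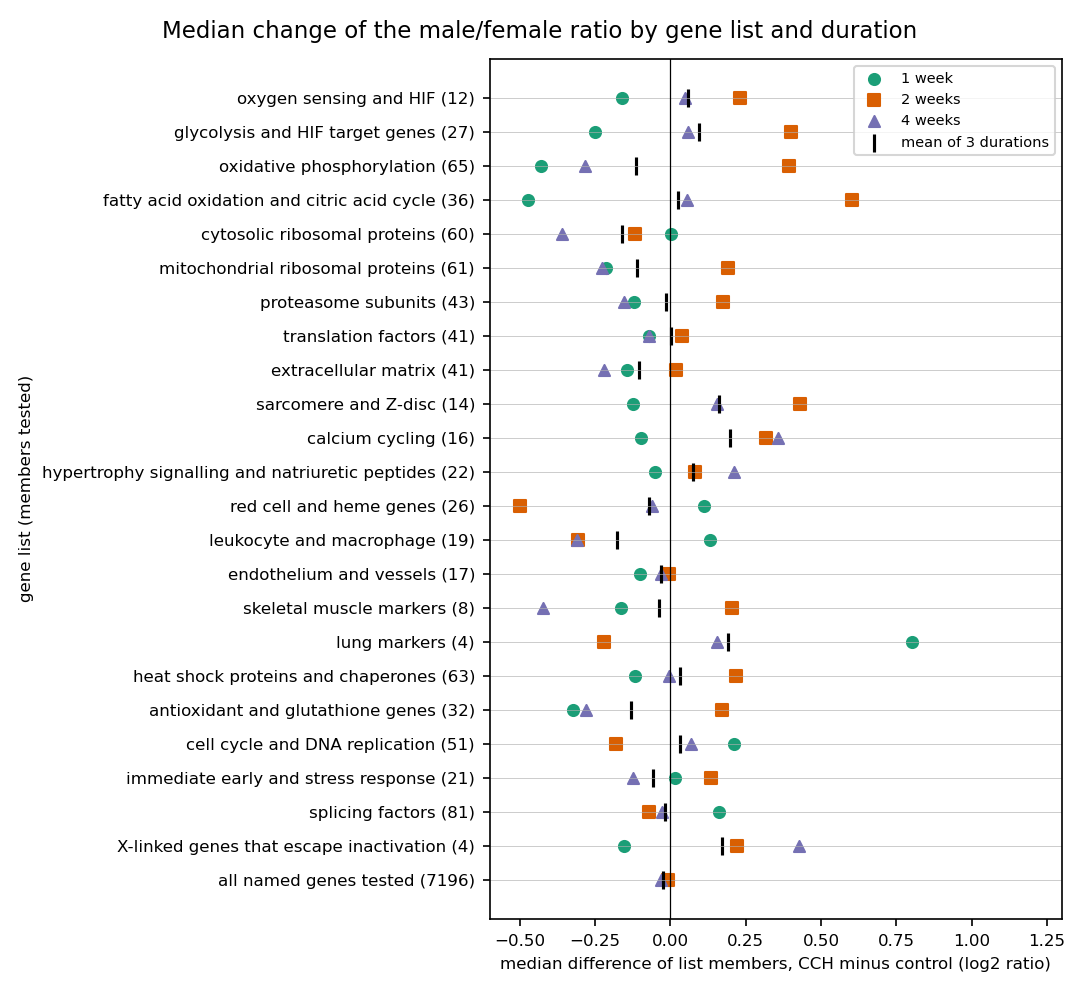
Median CCH minus control difference of the log2 male/female ratio in 23 gene lists and in all named genes (numbers of tested members in brackets), at 1 week (circles), 2 weeks (squares), 4 weeks (triangles) and in the mean of the 3 durations (bars). Oxidative phosphorylation runs from −0.43 at 1 week to 0.39 at 2 weeks and cytosolic ribosomal proteins from 0.00 to −0.36 at 4 weeks, while all named genes stay within 0.03 of 0.

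Ribosomal protein genes were mostly below 0 in the mean. Of 60 cytosolic ribosomal proteins, 52 were below 0 (86.7%, against 54.9% of all named genes), with a median of −0.16. The medians were 0.00 at 1 week, −0.12 at 2 weeks and −0.36 at 4 weeks. The sign at 1 week turned under scaling (−0.02), quantile normalization (−0.09) and no centring (−0.04). Below 0 at all 3 durations were 23 of the 60 members, against 611 of all 7196 named genes. Their median by array was −0.47 and −0.42 on the CCH arrays of 4 weeks and −0.20 and −0.09 on the controls. The 2-week median was −0.021 without control 2 weeks replicate 2. Control 1 week replicate 1 stood at −0.57 and its partner at 0.09, so the 1-week median was −0.32 when the first was left out and 0.32 without the second, and the mean median ran from −0.28 to −0.04. Besides Rps12, the members with the smallest p-values were Rps23, Rpl41 and Rps9, with mean differences of −0.52 (95% interval −0.87 to −0.17), −0.42 (−0.75 to −0.09) and −0.40 (−0.77 to −0.04). Every CCH array with a value lay below the control mean of its duration in these 3 genes. Ribosomal protein genes have many processed copies in the genome, and cDNA spots may not tell them apart. None passed the adjusted test.

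Mitochondrial ribosomal proteins followed oxidative phosphorylation at smaller sizes, with medians of −0.21, 0.19 and −0.23. In the mean, 44 of 61 were below 0 (72.1%, against 54.9% of all named genes), with a median of −0.11. That median ran from −0.17 to −0.06 without 1 of the 2-week controls. Mrps35 and Mrpl9 had mean differences of −0.36 and −0.32. Mrpl40 and Mrps28, described above, belong to this list. Without control 2 weeks replicate 2 the 2-week median was 0.02. Of 41 genes in the list of translation factors, 20 were below 0 in the mean (48.8%, against 54.9%, median 0.00, of either sign without 1 array). This list was matched by symbol and also holds genes that are not such factors, among them Eef2kmt, Eif4ebp2 and Eif4enif1. The initiation factor genes Eif3k and Eif2d had −0.65 (95% interval −1.05 to −0.25) and −0.39 (−0.65 to −0.12). The 43 proteasome genes had a median of −0.01 (0.0012 without control 1 week replicate 2), with Psmd2 at 0.56 (0.04 to 1.08), Psmd12 at 0.50 and the immunoproteasome gene Psmb8 at 0.45 on the higher side. That list was matched by symbol and also holds Psmb11 and Psme3ip1, of which the second is not a subunit.

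Contractile and calcium genes were mostly above 0. In the sarcomere and Z-disc list 12 of 14 members were above 0 in the mean (45.1% of all named genes were), with a median of 0.16, which was 0.08 without control 1 week replicate 2 and 0.25 without its partner, and medians of −0.12, 0.43 and 0.15 by duration. Without the atrial genes Myl4 and Myl7 the mean median was also 0.16, and the 4-week median was 0.04. Csrp3, the muscle LIM protein of the Z-disc, had −0.42, 0.78 and 0.20, and Flnc (filamin C) and Vcl (vinculin) had mean differences of 0.42 (95% interval −0.03 to 0.87) and 0.28 (−0.04 to 0.60) with 6 of 6 CCH arrays above the control mean of their duration. Pdlim5 had −0.68, 1.55 and 0.91. The 2 controls farthest from 0, control 1 week replicate 1 at 0.53 and control 2 weeks replicate 2 at −0.65, moved the medians: without the first the 1-week median was 0.10, and without the second the 2-week median was 0.30.

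In the calcium cycling list 12 of 16 members were above 0, with a median of 0.20 (0.12 without control 1 week replicate 2) and medians of −0.10, 0.32 and 0.36. Leaving out CCH 4 weeks replicate 1 gave a 4-week median of 0.07, since that array stood at 0.34 and its partner at −0.04. Without control 2 weeks replicate 2 the 2-week median was 0.17, and without control 1 week replicate 1 the 1-week median was 0.16. Atp2a2, the calcium pump of the sarcoplasmic reticulum, had a mean difference of 0.20 (95% interval −0.16 to 0.55), and Pln, the phospholamban that restrains it, 0.40 (−0.13 to 0.93). The sodium-calcium exchanger gene Slc8a1 had 1.12 at 2 weeks. Sri (sorcin), a brake on the calcium release channel, was on the other side, with −0.45 (−0.76 to −0.14) and 5 of 6 CCH arrays below the control mean. Nppb, the natriuretic peptide of strained ventricles, had CCH arrays between −0.74 and 0.43 that lay inside the wider range of the controls except for the lowest, and its mean difference was −0.40 (−1.09 to 0.28). Of the 22 genes of hypertrophy signalling, 15 were above 0 (68.2%, against 45.1% of all named genes, median 0.08, and −0.0037 without control 4 weeks replicate 2), among them Igf1 (0.34) and Nfatc1 (0.22), and Agt stood at −0.30.

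**Figure D5:**
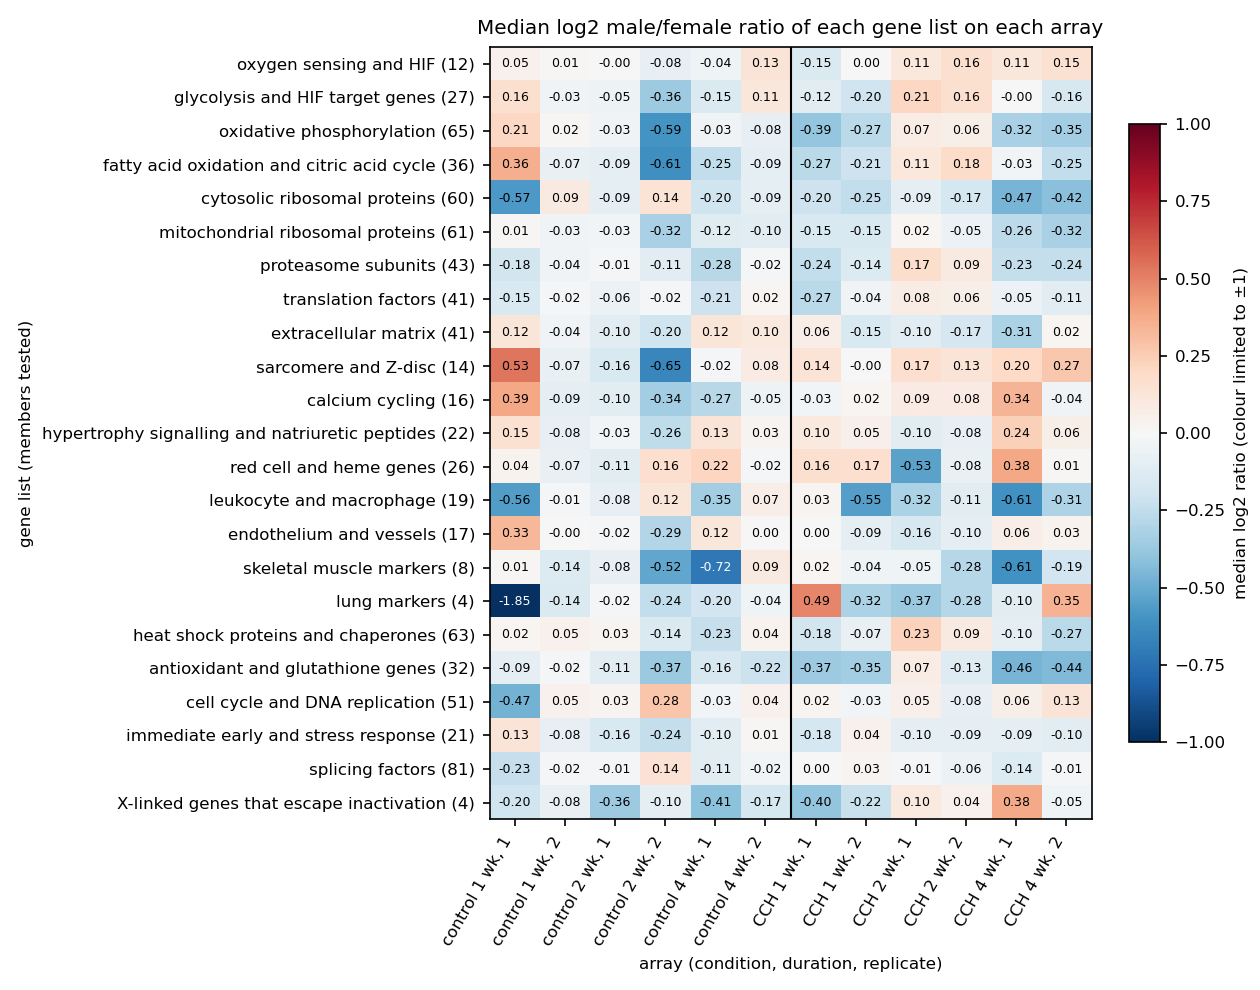
Median log2 male/female ratio of the tested members of 23 gene lists on each of the 12 arrays, controls left of the black line and CCH right of it (numbers of members in brackets, values in the cells, colour limited to ±1). The CCH replicates resemble each other in the upper rows, whereas control 1 week replicate 1 and control 2 weeks replicate 2 stand apart from their partners, with oxidative phosphorylation at 0.21 and −0.59.

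Extracellular matrix genes were mostly below 0. In the mean, 33 of 41 members were (80.5%, against 54.9% of all named genes), with a median of −0.10. The medians by duration were −0.14, 0.02 and −0.22, of which that at 2 weeks turned sign with the median of spots (−0.02). Mfap4, a microfibril glycoprotein, had controls at 0.05 and 0.15, −0.26 and −0.09, and 0.33 and 0.30, and CCH arrays at −0.49 and −1.19, −0.10 and −0.30, and −0.31 and −0.27. CCH lay below both controls at 1 and 4 weeks and overlapped them at 2 weeks, and the mean difference was −0.52 (95% interval −0.83 to −0.22). The proteoglycan genes Bgn (biglycan) and Lum (lumican) had −0.34 and −0.33, each with 6 of 6 CCH arrays below the control mean of their duration. The 1-week median of the list was 0.00 without CCH 1 week replicate 2, and the 4-week median ran from −0.47 without CCH 4 weeks replicate 2 to −0.15 without CCH 4 weeks replicate 1.

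Macrophage and blood genes are markers of other cells in the heart, and a different ratio of such a list can come from the number of these cells or from their RNA per cell, in the male or in the female heart, which cannot be told apart. Of 19 leukocyte and macrophage genes, 15 were below 0 in the mean (78.9%, against 54.9% of all named genes). The median was −0.18, and the medians by duration were 0.13, −0.31 and −0.31. The complement genes C1qa and C1qb had −0.52 and −0.40 (95% interval of C1qb −0.78 to −0.01), and Tyrobp, an adaptor of myeloid receptors, −0.45 (−0.81 to −0.08). The mean median ran from −0.37, with control 1 week replicate 1 left out, to −0.01, with control 4 weeks replicate 2 left out. The single medians turned or neared 0 as well, at 1 week −0.29 without control 1 week replicate 1, at 2 weeks −0.01 without control 2 weeks replicate 2 and at 4 weeks 0.01 without control 4 weeks replicate 2. Red cell and heme genes had 18 of 26 below 0 in the mean (69.2%, against 54.9%, median −0.07, and 0.0066 without CCH 4 weeks replicate 2). At 2 weeks 21 of 26 were below 0 (80.8%, against 51.2% of all named genes, median −0.50). That 2-week value rested on 1 array, since the median was −0.01 without CCH 2 weeks replicate 1. The list of endothelial and vessel wall genes also holds the fibroblast and pericyte genes Pdgfra, Pdgfrb and Rgs5 and the smooth muscle gene Cnn1. Of its 17 members, 10 were below 0 in the mean (58.8%, near the 54.9% of all named genes) and 7 above. The median of the list was −0.03, and 0.07 without control 1 week replicate 1. The 4 members with the smallest p-values, Emcn, Tie1, Esam and Pdgfrb, stood at −0.35, −0.34, −0.33 and −0.33.

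Antioxidant and glutathione genes had 24 of 32 members below 0 in the mean (75%, against 54.9% of all named genes, median −0.13) and medians of −0.32, 0.17 and −0.28. Without CCH 2 weeks replicate 1 the 2-week median was 0.02. Nqo1, a quinone reductase that answers to oxidative stress, had controls at −0.24 and −0.44, −0.01 and 0.11, and 0.11 and −0.38. Its CCH arrays stood at 0.12 and 0.07, −0.61 and −0.98, and −1.33 and −1.04. It was thus above the controls at 1 week and below them at 2 and 4 weeks, with a mean difference of −0.49 (95% interval −0.79 to −0.19). Gpx8 had the same order of signs (0.42, −0.76 and −0.86), and Glrx5, which builds iron-sulfur clusters, had −0.63, 0.13 and −0.27. Hmox1, the heme oxygenase, was measured on 9 arrays, and its interval of −0.59 to 0.98 around 0.20 was wide.

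Sex-linked genes include ones whose ratio can depend on sex itself. Eif2s3y is Y-linked and absent from females, so the size of its ratio cannot be read as a male-to-female difference in level. Eif2s3y had controls at 2.00 and 1.94, 1.42 and 1.04, and 1.24 and 1.00, and CCH arrays at 1.13 and 1.75, 2.28 and 2.24, and 1.16 and 1.61. Under CCH its ratio was lower at 1 week and higher at 2 weeks, by −0.53 and 1.03, without passing the test (limma adjusted p 0.70 and 0.48), and the mean difference of 0.26 turned sign when arrays were scaled (−0.35) or quantile normalized (−0.01). Of the 4 X-linked genes that escape inactivation, 3 had a mean difference above 0 (median 0.17, and 0.06 without control 4 weeks replicate 1), with Kdm6a at 0.24 (95% interval −0.08 to 0.55), Kdm5c at 0.20, Usp9x at 0.14 and Ddx3x at −0.02.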

How the data were processed

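The 12 arrays were 2-colour 27K mouse cDNA arrays, with Cy5 on the male and Cy3 on the female cDNA, per the labels. The deposited unit is a log2 ratio per spot, and the values themselves show that the authors scaled each array to a mean linear ratio of 1. The base of the log was taken from the values, and the ratio's numerator, the background correction and the spot filter are not given in the sources used here. No signal or background was used, so the number of arrays limits the precision.

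The median of each array was set to 0, and the spots of a gene symbol were averaged. Of 28704 spots, 18511 had 1 symbol, 937 several and 9256 none, by GEO's platform annotation. Spots without a single symbol were tested by themselves. R 4.3.3 with limma 3.58.1 fitted 6 group means (lmFit, contrasts.fit, eBayes, two-sided, Benjamini-Hochberg over 10783 units, threshold 0.05), with missing values left out. The code was tested on simulated data. Python 3.11.15, pandas 2.3.3, numpy 2.4.6, scipy 1.17.1 and matplotlib 3.10.9 made the summaries.

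Named genes were the 12 of smallest p in each direction for the mean difference (value on at least 10 arrays), 3 in each direction at each duration, 5 by the F test, 4 in each gene list, those without overlap between conditions, and a fixed panel. The members and the 26 gene lists were chosen with earlier results of these data known. Of the panel, Epas1, Vegfa, Myh6, Myh7, Acta1, Actc1, Hba-a1, Nppa, Xist and Hbb-b1 were not tested. Alternatives changed the centring, the scaling, the spot summary, the filter, the arrays, the units, the variance model and the replicate block. The medians of 3 lists without some of their members were added after seeing the data.

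Replicate letters came from the array codes in the labels. An array without a letter took the one its partner lacks, and control 2 weeks replicate 1 carries the code of a 1-week array. The title and source of 1 intermittent hypoxia array disagree, and its title was used.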

Additional observations from a re-analysis of the deposited data

Results flagged for a closer look

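In 20 of 332 sets of 5 or 6 arrays of 1 condition, the highest or lowest array lay apart from the others by Dixon's criterion, which chance alone gives in about 1 in 20 sets. Values are log2 male/female ratios.

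On CCH 4 weeks replicate 1, Atp2a1 stood at −1.50, Cited2 at 1.07, Kdm5c at 1.08, Rps9 at −0.79 and Sardh at −1.25, and the calcium cycling median at 0.34. On CCH 4 weeks replicate 2, Ctla2b stood at −0.88. Hbb-bh1, an embryonic globin gene, stood at −2.09 on CCH 2 weeks replicate 1, and Mfap4 at −1.19 on CCH 1 week replicate 2.

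Among the controls, control 1 week replicate 1 had the airway genes Scgb1a1 at −5.81 and Scgb3a2 at −2.87 and the lung marker median at −1.85. Mcm9 stood at 0.35 on control 1 week replicate 2, and Ctla2b at −0.034 on control 2 weeks replicate 1. Control 2 weeks replicate 2 had Cdkn1a at −0.39, Dlst at −0.55, Dmkn at −0.50 and the oxidative phosphorylation median at −0.59. Control 4 weeks replicate 1 had Nectin2 at 1.28 and Nolc1 at −0.53.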

How the results depend on the processing

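Every comparison called 0 units by limma, and most alternatives gave 0 too. At 2 weeks, 1 unit was called after scaling the arrays to one spread and 1 with quantile normalization (Glo1 in both), and 2 with all 18 arrays (Pgrmc1 and an unnamed spot). The F test called 2 with quantile normalization (Dcn and Glo1). Leaving out 1 array gave 0 to 1 calls for the mean, 0 to 4 at 1 week, 0 to 0 at 2 weeks, 0 to 21 at 4 weeks (without CCH 4 weeks replicate 2) and 0 to 2 in the F test. Of these, Alb and Trf at 1 week came without CCH 1 week replicate 2, and Scgb1a1 and Scgb3a2 without control 1 week replicate 2.

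Units at an unadjusted p under 0.05 ran from 430 (without CCH 2 weeks replicate 1) to 1309 (without CCH 4 weeks replicate 2) for the mean, with 309 under the replicate block and 419 with arrays scaled. They ran from 220 (without CCH 1 week replicate 1) to 1228 (without CCH 1 week replicate 2) at 1 week and from 217 (without control 2 weeks replicate 2) to 1787 (arrays scaled) at 2 weeks. At 4 weeks they ran from 331 (arrays scaled) to 2196 (without control 4 weeks replicate 2).

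The replicate block called 0 units for the mean difference (smallest adjusted p 0.962). The deviations of arrays with the same letter correlated at 0.18, 0.44 and −0.40 at 1, 2 and 4 weeks. These values differ in sign and were not set against other pairings, so they do not settle whether the letters paired the arrays.

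The mean difference of 10 of 142 named genes changed sign in 39 of 3172 alternative values, 37 of them no larger than the SE, and the cause was not tested. With arrays scaled, Eif2s3y was −0.35, Ddx3x 0.11 and Pgk1 0.00092. With quantile normalization, Eif2s3y was −0.010, Ddx3x 0.093, Pgk1 0.0041 and Sftpc 0.014. With the median of spots, Ddx3x was 0.040 and Tfrc 0.066, and Pdk1 was −0.042 under the replicate block. Without 1 array, Alas2 ranged from −0.72 to 0.071, Ddx3x from −0.16 to 0.13, Hif1a from −0.066 to 0.24, Hmox1 from −0.075 to 0.47 and Pdk1 from −0.079 to 0.34. Pgk1 ranged from −0.13 to 0.13, Sftpc from −1.29 to 1.05, Slc2a4 from −0.17 to 0.28 and Tfrc from −0.13 to 0.12. The exact permutation p of the spread ranged from 0.0556 to 0.259 without 1 array. Signal over background was not analysed here, so no limit from dim spots is given.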

Other observations

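Heat shock and chaperone genes, which fold and protect proteins, also turned between durations. Of 63 members, 47 were below 0 at 1 week (51.2% of all named genes were) with a median of −0.12, which was −0.06 without CCH 1 week replicate 1 and −0.21 without its partner. At 2 weeks 49 were above 0 (48.8% of all named genes) with a median of 0.22, and 45 did both (36.5% of all named genes). Their 4-week median was −0.00 with a sign that turned under quantile normalization, and no member passed the adjusted limma test.

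Genes of cell cycle and DNA replication ran the other way. Of 51 members, 38 were above 0 at 1 week (74.5%, against 48.8% of all named genes, median 0.21). At 2 weeks 38 were below 0 (74.5%, against 51.2%, median −0.18). The 1-week median was −0.05 without control 1 week replicate 1, and the 2-week median was −0.03 without control 2 weeks replicate 2. A list of splicing and RNA-binding genes was matched by symbol and also holds genes that are not splicing factors, such as Rbm3, Rbm19 and Lsm14a. Of its 81 members, 61 were above 0 at 1 week (75.3%, against 48.8% of all named genes, median 0.16, and 0.05 without control 1 week replicate 1). At 2 weeks 53 were below 0 (65.4%, against 51.2%, median −0.07, and 0.01 without control 2 weeks replicate 2). Immediate early and stress genes had 12 of 21 below 0 in the mean (57.1%, near the 54.9% of all named genes). Their median was −0.06, and 0.03 without control 1 week replicate 1. Skeletal muscle markers had 4 of 8 below 0 in the mean (50%, near the 54.9% of all named genes) and a median of −0.04, with a sign that turned under scaling (0.0038). The 2 adipocyte markers had medians of 0.52 at 1 week and −0.70 at 2 weeks, and the first was 0.03 without CCH 1 week replicate 1 and 1.00 without its partner. No thymus marker was tested.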
